A study of Mus musculus with 12 samples.

Results

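The cytokine response of oligodendrocyte precursor cells (OPCs) was taken culture by culture and compared between genotypes, to ask which genes respond differently when TNFR2 is deleted. All 12 libraries of the series were used. They form 6 cultures, 3 WT (numbers 2, 3 and 4) and 3 labelled TNFR2-/- (numbers 2, 4 and 5), each with 1 non-stimulated (NS) and 1 stimulated (St) library. For each culture and gene the response was log2(FPKM + 0.5) in the St library minus the same in the NS library of that number, and the difference reported throughout is the mean of the 3 TNFR2-/- responses minus the mean of the 3 WT responses. Errors after ± are SD for responses and SE for differences, with n = 3 cultures a genotype. FPKM are fragments scaled to the library total and to a number of bases per gene, and 0.5 was added to limit the noise of genes near 0. In these files that number had a Spearman correlation of only 0.130 with annotated exon length over 13346 genes, so FPKM were compared between libraries of a gene and not between genes, and the number of reads that 0.5 or 1 FPKM stands for varied between genes apart from their length. Of 45563 gene symbols, the 13554 with a mean of at least 1 FPKM over the 12 libraries were tested.

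All cells were primary OPCs of C57BL/6 pups aged postnatal day 2 to 5 by the labels, isolated from cortex on anti-PDGFRα beads and cultured for 3 days. St cells received TNF, IFNγ and IL1β at 25 ng/mL each for 3 h, and the methods give PBS as the vehicle of NS cells. The methods describe the TNFR2-/- mice as a germline knockout, so that every cell type carries the deletion, and the labels do not say how many pups went into a culture. The numbers pair libraries within a genotype. After group means were removed, NS and St libraries of the same number correlated at 0.338 to 0.649 in all 6 pairs. Libraries of different numbers correlated at -0.455 to 0.0880. Deviations within a group of 3 sum to 0, which ties these ranges together, so the second range is no separate evidence of pairing. Where nothing shows separate litters, the p-values measure the spread between these cultures. Library totals were 26886878 to 30335265 read pairs.

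TNF acts through 2 receptors. TNFR1, encoded by *Tnfrsf1a*, is widely expressed, carries a death domain and drives the canonical NF-κB pathway and cell death, whereas TNFR2, encoded by *Tnfrsf1b*, binds TRAF2 and is linked to survival and repair. IFNγ signals through JAK1 and JAK2 to interferon-stimulated genes, and IL1β converges with TNF on NF-κB and MAP kinases. OPCs proliferate, express PDGFRα and NG2, and give rise to myelinating oligodendrocytes, and under these cytokines they also express chemokines and antigen presentation genes.

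The targeted gene did not mark the genotypes in the direction of a deletion. *Tnfrsf1b* (chr4:145213463-145246870, GRCm38, minus strand) had 15, 12 and 24 reads in WT NS libraries and 145, 61 and 105 in WT St libraries. In the libraries labelled TNFR2-/- it had 322, 346 and 213 reads in NS and 282, 356 and 290 in St. Reads were therefore higher in every library labelled TNFR2-/- than in any WT library, and they do not show which part of the gene they come from. Its response was 1.61, 0.82 and 1.08 in the WT cultures and -0.16, 0.04 and 0.44 in the TNFR2-/- cultures. The difference was -1.06 ± 0.257 (SE), which did not pass the test (adjusted p = 0.0892, limma with Benjamini-Hochberg adjustment over 13554 genes). With voom, a model of recovered reads described below, it was -2.43 and was called (adjusted p = 0.00825), and over all alternatives it lay between -2.43 and -0.53. All directions below rest on the genotype labels as given.

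1 gene passed the test. *Gbp2b*, an interferon-inducible guanylate-binding GTPase of cell-autonomous defense, responded far more in the cultures labelled TNFR2-/- than in WT (adjusted p = 0.00376, limma, n = 3 and 3 cultures). Calls required an adjusted p of at most 0.05 and a difference of at least 1.5-fold, and 0.00738% of genes met both. No gene was called with a lower response in TNFR2-/- cultures by limma, although 2336 had a lower response at an unadjusted p under 0.05. A second model, voom, weighs each gene by the precision of its recovered read counts and was fitted with culture as a block. It called 168 genes, 106 with a higher and 62 with a lower response in TNFR2-/-, *Gbp2b* among them (adjusted p = 0.0165). The lowest adjusted p with voom, 0.00614, belonged to other genes. At an adjusted p of at most 0.05 without the fold, voom gave 1191 genes and limma 1.

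*Gbp2b* was almost absent before stimulation in every culture, with 1, 0 and 2 reads in the WT NS libraries and 21, 13 and 52 in the TNFR2-/- NS libraries. After cytokines it had 37, 279 and 180 reads in WT and 59491, 49174 and 66278 reads in TNFR2-/- cultures, and these groups did not overlap. Its responses were 0.50, 2.09 and 1.60 in WT and 9.13, 8.96 and 8.99 in TNFR2-/- cultures, a difference of 7.63 ± 0.376 (SE). The size depends on the added 0.5 FPKM, because NS levels lie below it, and was 4.43 with voom. The call was lost when WT culture 4 (adjusted p = 0.0525), TNFR2-/- culture 2 (0.0609) or TNFR2-/- culture 4 (0.0630) was left out, with differences of 7.57 to 7.73, and with 0.1 FPKM added instead of 0.5 (0.0808).

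*Gbp2*, a GTPase of the same family that lies next to *Gbp2b*, showed the opposite order and was not called. It had 83994, 83476 and 72759 reads in the WT St libraries and 34972, 36341 and 32307 in the TNFR2-/- St libraries. Its responses were 9.18, 9.36 and 9.13 in WT and 7.98, 6.66 and 7.15 in TNFR2-/- cultures, a difference of -1.96 ± 0.308 (adjusted p = 0.0778, limma). Voom called it with -3.43 (adjusted p = 0.0170), and its WT NS levels of 0.107 to 0.191 FPKM lie below the added 0.5. Reads of both genes were summed after these values were seen. Together they reached 2424 to 2793 RPM (reads scaled to the library total) in WT St and 2827 to 3435 in TNFR2-/- St libraries, and 0.744 to 1.37 and 1.83 to 8.89 in the NS libraries. Annotated transcripts of the pair share 0 sequences of 100 bases, of 2724 in *Gbp2b* and 2514 in *Gbp2*, but shorter or imperfect matches could still move reads between them, so each level alone is uncertain.

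*Gbp2b* spans chr3:142594847-142619179 and *Gbp2* chr3:142620602-142638008 (GRCm38, both plus strand). The 250 bases before each RefSeq start (GRCm38.p6) are shown because these neighbors respond in opposite order between the genotypes. They cover chr3:142594597-142594846 for *Gbp2b* and chr3:142620413-142620662 for *Gbp2*. Capitals mark GAAA, any 2 bases and GAAA, a core of the interferon-stimulated response element, searched on both strands.
Gbp2b: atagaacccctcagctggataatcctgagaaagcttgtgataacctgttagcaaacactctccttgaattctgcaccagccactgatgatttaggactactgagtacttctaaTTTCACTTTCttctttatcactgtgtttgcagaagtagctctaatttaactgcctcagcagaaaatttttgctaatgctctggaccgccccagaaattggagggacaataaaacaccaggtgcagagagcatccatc
Gbp2: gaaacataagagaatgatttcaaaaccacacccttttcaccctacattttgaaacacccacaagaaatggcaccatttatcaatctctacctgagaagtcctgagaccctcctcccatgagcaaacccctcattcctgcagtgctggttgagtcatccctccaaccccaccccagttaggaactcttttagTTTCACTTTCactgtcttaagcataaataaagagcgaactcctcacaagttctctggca
Each window holds 1 match of this motif. Among 32851 RefSeq promoter windows of this length, 2.98% hold it. A second motif, GAS (TTC, any 3 bases and GAA), was searched in the same way. It had 0 matches in either window, and 7.02% of the promoter windows hold it. A match is a string of letters and no evidence of binding.

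**Figure D1:**
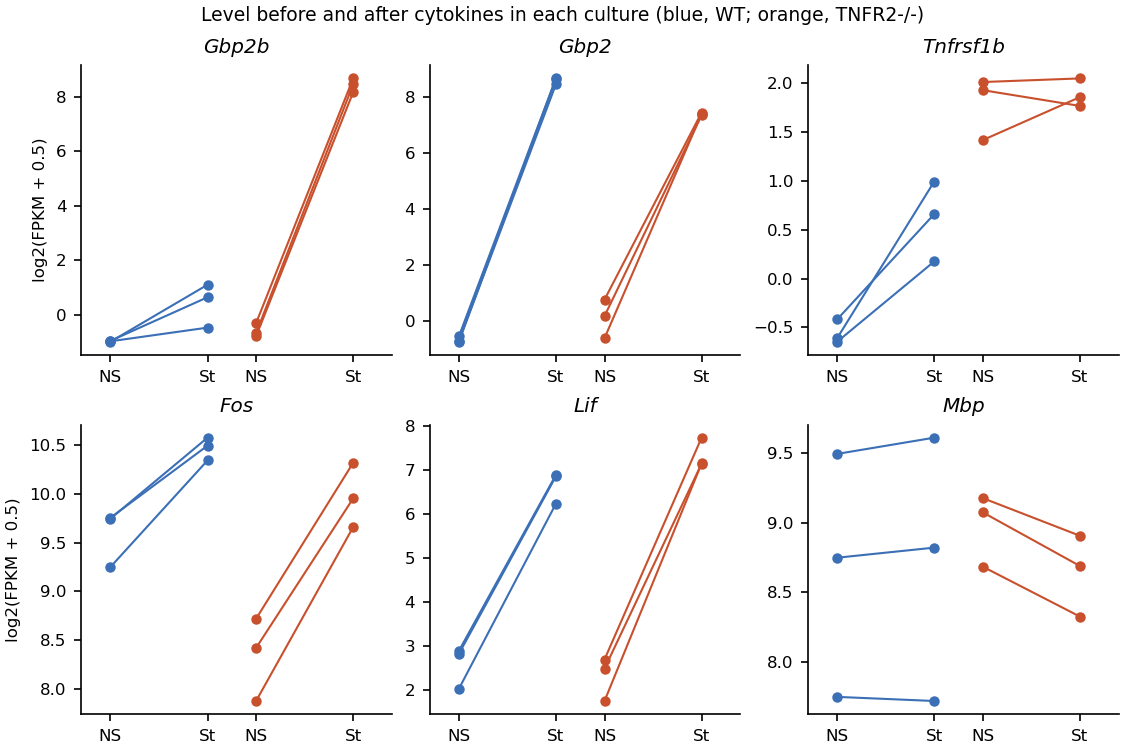
Level of 6 genes before (NS) and after (St) cytokines as log2(FPKM + 0.5), 1 line per culture, WT in blue and TNFR2-/- in orange, with a separate vertical scale for each gene. Gbp2b reached similar St levels in the 3 TNFR2-/- cultures and stayed low in the 3 WT cultures, whereas Fos in TNFR2-/- cultures started lower in NS and remained lower in St than in WT.

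Below the single call, differences were small and widespread. The median difference over all genes was -0.05, 38.6% of genes had a difference above 0, its percentiles 10 and 90 were -0.30 and 0.23, and the median SD of the 3 responses was 0.0882 in WT and 0.105 in TNFR2-/- cultures. At an unadjusted p under 0.05 there were 3504 genes (25.9%), 1168 with a higher (8.62%) and 2336 with a lower (17.2%) response in TNFR2-/-. The smallest adjusted p after that of *Gbp2b* was 0.0770, and many genes shared nearly that value. At an adjusted p of at most 0.1 there were 1154 genes (8.51%), 414 higher (3.05%) and 740 lower (5.46%), and 191 of these (1.41%) differed at least 1.5-fold, 113 higher (0.834%) and 78 lower (0.575%). The 3 responses of one genotype did not overlap the 3 of the other in 4457 genes (32.9%), 1491 higher (11.0%) and 2966 lower (21.9%). Of these, 57.3% differed more between genotypes in NS than in St libraries. The same share over all genes was not taken, so 57.3% is no finding about them. An exact permutation test of 3 against 3 cultures cannot give a p under 0.1.

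The general shape of the response was shared. Across genes, responses of a pair of cultures of the same genotype correlated at 0.907 to 0.916, and of a WT and a TNFR2-/- culture at 0.865 to 0.907. The points share genes, and these values are descriptions. The median response of all genes was -0.07 in each WT culture and -0.12, -0.13 and -0.15 in the TNFR2-/- cultures. The number of genes above 1 (log2) was 630 to 666 in WT and 685 to 783 in TNFR2-/- cultures, and below -1 it was 239 to 297 and 322 to 439. TNFR2-/- culture 5 had the widest spread of responses, with an SD of 0.878 against 0.738 to 0.807 in the other 5 cultures.

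**Figure D2:**
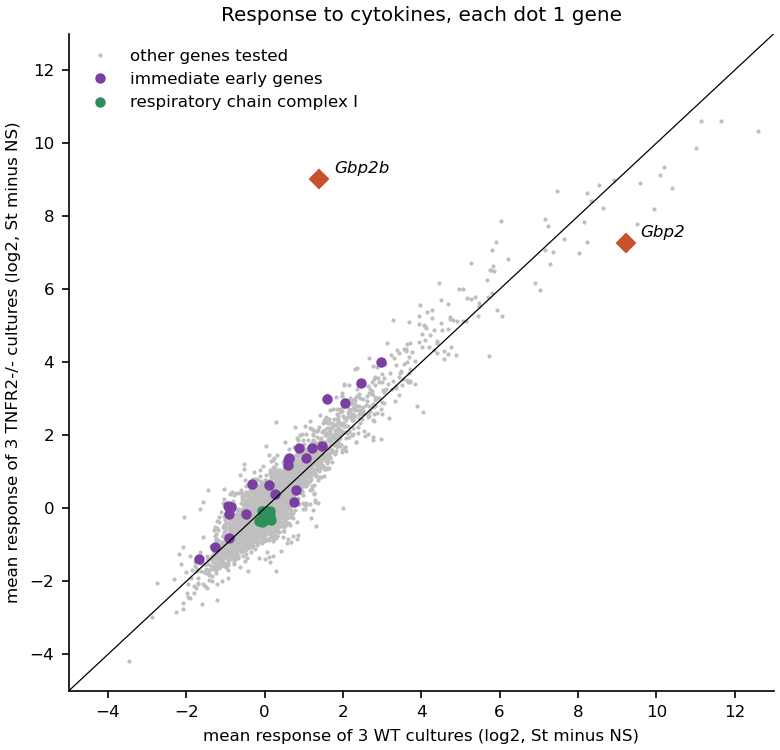
Mean response of the 3 TNFR2-/- cultures (vertical, log2) against that of the 3 WT cultures (horizontal, log2), 1 dot per gene tested, with the line of equal response. Gbp2b stands far above the line and Gbp2 below it. Most of the 23 immediate early genes (purple) lie above the line, and 33 of 34 complex I genes (green) lie just below it.

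The split between higher and lower differences depended on scaling and moved with transcript length. With median-of-ratios factors in place of library totals, 1873 genes had a higher and 1272 a lower response at an unadjusted p under 0.05, and with quantile normalization 1559 and 1698. Over 13346 genes with an annotated transcript, the difference had a Spearman correlation of 0.418 with the length of the longest transcript and of -0.232 with its GC content, as a description across genes. The median difference was -0.17 in the shortest of 5 equal groups of genes by transcript length (54 to 1950 bases) and 0.08 in the longest group. In the shortest group the median response was -0.0023, -0.0043 and -0.034 in the WT cultures and -0.12, -0.23 and -0.21 in the TNFR2-/- cultures. In the longest group it was -0.11, -0.12 and -0.08 in WT, against -0.08, 0.03 and -0.05. The part of length in the differences of single genes was not tested.

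**Figure D3:**
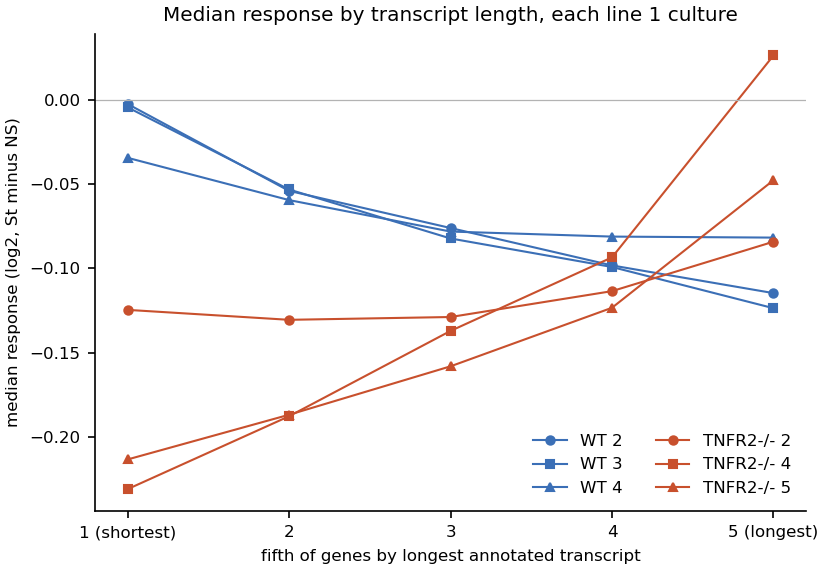
Median response (log2, St minus NS) of genes in 5 groups of equal size by annotated transcript length, 1 line per culture. The WT lines go down from near 0 in the shortest group, whereas TNFR2-/- cultures 4 and 5 go up from -0.23 and -0.21 to 0.03 and -0.05 and TNFR2-/- culture 2 changes little.

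The 9 other genes named with a higher response in TNFR2-/- cultures included signaling and surface genes. None was called by limma (adjusted p = 0.0770 for all 9), and they were chosen among genes whose responses did not overlap between genotypes, so the lack of overlap is no finding. *Pik3cd*, which encodes the catalytic p110δ subunit of PI3K, had 1.44, 1.17 and 1.27 FPKM in WT NS, 13.8, 10.3 and 12.2 in WT St, 1.44, 1.47 and 1.21 in TNFR2-/- NS and 22.96, 21.5 and 22.2 in TNFR2-/- St libraries. The NS libraries of the genotypes overlapped and the St libraries did not, with a difference in response of 0.80 ± 0.103. It lies on the chromosome of *Tnfrsf1b* (chr4:149649168-149702571). *Inpp4b*, a phosphatase of phosphoinositides, had responses of -0.09, -0.22 and -0.23 in WT and 0.44, 0.60 and 0.50 in TNFR2-/- cultures. Its genotypes lay apart in NS (-0.75, TNFR2-/- minus WT, log2) and close together in St (-0.05).

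*Tgm2*, transglutaminase 2, responded by 4.13 ± 0.106 (SD) in WT and 4.94 ± 0.135 in TNFR2-/- cultures, and *Lgals9*, which encodes galectin-9, by 1.24 ± 0.119 and 2.14 ± 0.177. *Efnb2*, the membrane ligand ephrin-B2, had a difference of 0.76 ± 0.105 (SE), and *Steap2*, a metalloreductase, responded by 0.85 ± 0.121 and 1.45 ± 0.0652. *Kctd8*, an auxiliary subunit of GABA-B receptors, responded by 0.22 ± 0.115 and 1.13 ± 0.144, and *Tecta*, a matrix protein best known from the inner ear, by 1.64 ± 0.138 and 2.35 ± 0.138. The *Tgm2* difference of 0.81 was 0.45 with voom (adjusted p = 0.248), on NS levels of 0.200 to 0.554 FPKM. For *Tgm2* and *Steap2* the genotypes differed more in St than in NS, by 1.07 against 0.26 and by 0.79 against 0.20. For *Kctd8* and *Tecta* the reverse held, with NS differences of -0.94 and -1.15 and St differences of -0.03 and -0.44. Voom called *Efnb2*, *Inpp4b*, *Kctd8*, *Steap2* and *Fos* along with *Gbp2b*, 6 of these 10 genes.

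The 10 genes named with a lower response in TNFR2-/- cultures were mostly expressed at a low level, and none was called by limma (adjusted p of 0.0770 to 0.0778). *Nmrk1*, a kinase of nicotinamide riboside, had 133, 166 and 158 reads in WT NS, 84, 131 and 108 in WT St, 167, 164 and 261 in TNFR2-/- NS and 61, 53 and 86 in TNFR2-/- St libraries. Its level was lower in St in all 6 cultures and its difference was -0.76 ± 0.110. *Gatsl3*, the arginine sensor of mTORC1 now named *Castor1*, had a response of 0.24 ± 0.240 (SD) in WT and -0.83 ± 0.135 in TNFR2-/- cultures. *Zfp879*, a zinc finger gene, responded by -0.45 ± 0.0961 and -1.37 ± 0.198, on 14 to 46 reads per library. *Fbxo17*, an F-box protein gene, responded by 0.32 ± 0.101 and -0.76 ± 0.308, on 21 to 50 reads.

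*Amn*, which encodes amnionless of the vitamin B12 receptor, rested on 4 to 18 reads per library and *A330102I10Rik*, a long noncoding RNA, on 1 to 14, so their differences of -1.61 and -0.98 stand on few counts. *Gm38391* and *1500015A07Rik*, an unclassified and an antisense transcript, had differences of -0.86 and -0.81. *Rpl9-ps6* (-0.72) is named as a copy of a ribosomal protein gene, whose reads could be split between copies. Voom called 7 of these 10 genes.

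**Figure D4:**
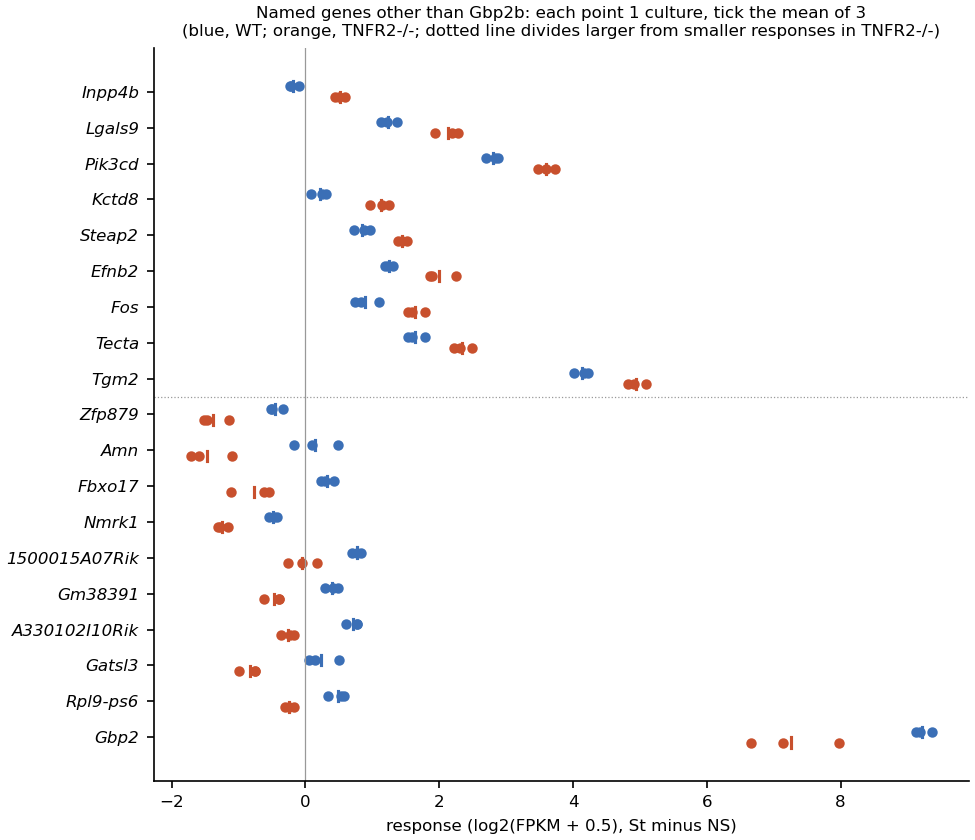
Response (log2, St minus NS) of the 19 named genes other than Gbp2b in each culture, WT in blue and TNFR2-/- in orange, with a tick at the mean of 3. Genes above the dotted line responded more in the TNFR2-/- cultures and genes below it less, and only Gbp2 among them lies beyond 6.

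Immediate early genes had the highest median among the lists. These genes encode transcription factors and regulators switched on within minutes of growth factor or stress signals. Of 23 tested, 21 had a higher response in TNFR2-/- cultures (all genes, 38.6%), 16 of them at an unadjusted p under 0.05 (all genes, 8.62%), 1 had a lower response at that level and 0 were called by limma. Their median difference was 0.58 against -0.05 for all genes. It remained 0.45 to 0.69 with each culture left out, and was 0.64 and 0.58 with the other scalings and 0.71 with trends of length and GC removed. In NS libraries 22 of 23 were lower in TNFR2-/- than in WT, with a median of -0.69, and in St libraries 15 of 23, with a median of -0.27, against 5814 and 6909 of 13554 genes.

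*Fos*, a subunit of AP-1, had 609, 859 and 864 FPKM in WT NS, 1299, 1528 and 1444 in WT St, 342, 421 and 234 in TNFR2-/- NS and 992, 1278 and 809 in TNFR2-/- St libraries. It was lower in every TNFR2-/- library than in any WT library of the same treatment, and its response was 0.89 ± 0.183 (SD) in WT and 1.64 ± 0.130 in TNFR2-/- cultures (adjusted p = 0.0770, limma). *Egr1*, a zinc finger factor induced by ERK, had 163, 255 and 233 FPKM in WT NS, 109, 128 and 114 in WT St, 81.6, 111 and 73.8 in TNFR2-/- NS and 86.4, 96.1 and 86.6 in TNFR2-/- St libraries. Its response was thus -0.87 ± 0.252 in WT and 0.04 ± 0.219 in TNFR2-/- cultures (adjusted p = 0.0778).

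Genes of ERK feedback, which encode phosphatases and inhibitors that damp this kinase pathway, had a median difference of 0.10 in 16 tested. 6 had a higher and 1 a lower response at an unadjusted p under 0.05 (all genes, 8.62% and 17.2%). The phosphatases *Dusp1* and *Dusp4* had responses of -0.78 ± 0.303 and -0.61 ± 0.103 in WT and of 0.11 ± 0.303 and -0.24 ± 0.0355 in TNFR2-/- cultures. As with *Egr1*, *Dusp1* was lower in NS libraries of TNFR2-/- cultures (-1.46) and less so in St (-0.57).

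Cytokines and chemokines had mixed differences, and none was called by limma. Of 16 interleukins and growth factors of immune cells tested, 7 had a higher and 2 a lower response in TNFR2-/- cultures at an unadjusted p under 0.05, with a median difference of 0.41 (all genes, 8.62%, 17.2% and -0.05). That median was 0.21 without TNFR2-/- culture 5 and 0.25 with voom. *Lif*, a cytokine of the IL6 family that acts on glia, had 569, 264 and 540 reads in WT NS, 9687, 6137 and 9487 in WT St, 422, 496 and 239 in TNFR2-/- NS and 11525, 17513 and 11067 in TNFR2-/- St libraries. All 3 TNFR2-/- St libraries lay above the WT St libraries, and the difference in response was 0.95 ± 0.179 (adjusted p = 0.0778, limma, and voom called it). *Lif* was picked as 1 of the 2 list members of smallest p, so this separation is no finding. *Csf2*, which encodes GM-CSF, went the other way with -1.40 ± 0.353, on 18 to 27 reads in WT St and 6 to 23 in TNFR2-/- St libraries. *Csf1*, the growth factor of microglia and macrophages, responded by 2.38 ± 0.110 in WT and 2.06 ± 0.273 in TNFR2-/- cultures, which overlapped (adjusted p = 0.209).

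Of 14 CC and CXC chemokines tested, 4 had a higher and 2 a lower response at an unadjusted p under 0.05 (all genes, 8.62% and 17.2%). Their median difference was 0.29, but -0.16 with voom and 0.44 without TNFR2-/- culture 2. *Cxcl9*, an IFNγ-induced attractant of T cells, had 0, 0 and 2 reads in WT NS, 6018, 3578 and 4193 in WT St, 0, 12 and 11 in TNFR2-/- NS and 10662, 8405 and 22836 in TNFR2-/- St libraries. The St libraries did not overlap between genotypes, and the difference in response was 1.38 ± 0.391 (adjusted p = 0.105) but -1.22 with voom (adjusted p = 0.502). *Cxcl10*, which binds the same receptor, responded by 10.20 ± 0.433 in WT and 9.34 ± 0.864 in TNFR2-/- cultures, and the cultures overlapped. Its St libraries were nevertheless higher in TNFR2-/- (3476 to 4110 FPKM) than in WT (2173 to 2701). The NS libraries of *Cxcl10* were also higher in TNFR2-/- (2.84 to 9.47 FPKM) than in WT (1.04 to 2.32).

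The monocyte attractants *Ccl2* and *Ccl7* responded by 7.24 ± 0.281 and 5.79 ± 0.138 in WT and by 7.72 ± 0.473 and 6.53 ± 0.432 in TNFR2-/- cultures (adjusted p = 0.265 and 0.105). *Ccl11*, eotaxin, responded by 5.07 ± 0.196 and 6.02 ± 0.645 and was at 0 in the WT NS libraries. *Cxcl11* (0.76 ± 0.469) and *Cxcl12* (0.39 ± 0.255) had overlapping responses. *Cx3cl1*, fractalkine, responded by 1.94 ± 0.0357 and 2.13 ± 0.0514, a small difference of 0.19 (adjusted p = 0.0929).

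Interferon targets differed by family. Of 21 antiviral effectors, which sense or block viral RNA, 20 had a higher response in TNFR2-/- cultures (all genes, 38.6%) and 6 did so at an unadjusted p under 0.05 (all genes, 8.62%), with a median difference of 0.18 (0.03 with voom and 0.27 without WT culture 3). *Oasl2* responded by 4.01 ± 0.150 in WT and 4.77 ± 0.234 in TNFR2-/- cultures and *Ifit1* by 4.10 ± 0.0916 and 4.62 ± 0.152. Neither overlapped between genotypes (all genes, 32.9%), but both were picked for the smallest p of the list, so the lack of overlap is no finding. With voom the *Oasl2* difference of 0.76 was 0.49 (adjusted p = 0.422) and the *Ifit1* difference of 0.52 turned to -0.24 (adjusted p = 0.814). Of 18 interferon-inducible GTPases, *Gbp2b* was called, 9 had a higher and 9 a lower response, and the median difference was -0.22. That median was 0.36 without TNFR2-/- culture 4, -0.66 without TNFR2-/- culture 2 and -1.10 with voom.

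Genes of JAK-STAT, IRF and SOCS signaling had a median difference of -0.09 in 17 tested. Of these, 3 were higher and 5 lower at an unadjusted p under 0.05 (all genes, 8.62% and 17.2%). *Jak2*, a kinase of the IFNγ receptor, had a difference of 0.29 ± 0.0719, and *Ifngr1*, its ligand-binding chain, one of -0.31 ± 0.0628. Of 18 genes of NF-κB subunits and feedback, 4 were higher and 1 lower at that level (all genes, 8.62% and 17.2%), with a median of 0.10 that was 0.012 without TNFR2-/- culture 5 and 0.24 without TNFR2-/- culture 4. *Nfkbiz*, a nuclear IκB that promotes secondary response genes, responded by 0.95 ± 0.0805 in WT and 2.03 ± 0.657 in TNFR2-/- cultures, and *Rel*, the c-Rel subunit, by 0.75 ± 0.0503 and 1.36 ± 0.202. Both were called by voom alone.

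Of 18 TNF receptors, ligands and adaptors tested, 2 had a higher and 3 a lower response at an unadjusted p under 0.05 (all genes, 8.62% and 17.2%). *Tnfrsf1a* responded by 1.31, 1.47 and 1.36 in WT and by 1.19, 1.16 and 0.83 in TNFR2-/- cultures (-0.32 ± 0.104, adjusted p = 0.128). *Tnfrsf11b*, the decoy receptor osteoprotegerin, responded by 1.97 ± 0.568 and 3.08 ± 0.283, and voom called it.

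Antigen presentation genes had differences in both directions, and the medians of their lists were small. Of 16 genes of MHC-I and peptide loading, 4 had a higher and 1 a lower response at an unadjusted p under 0.05 (all genes, 8.62% and 17.2%). Their median difference was 0.04. *H2-D1*, a classical MHC-I heavy chain, had 27.7, 32.6 and 32.7 FPKM in WT NS, 159, 148 and 158 in WT St, 29.2, 33.7 and 29.4 in TNFR2-/- NS and 193, 224 and 263 in TNFR2-/- St libraries. NS levels overlapped and all TNFR2-/- St libraries lay above WT, with a difference in response of 0.54 ± 0.141 (adjusted p = 0.0948). Reads of MHC-I genes can be shared between near-identical copies, which makes single members uncertain.

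*H2-Q4*, a nonclassical heavy chain, had 0.56 ± 0.134 and *Erap1*, the peptidase that trims peptides for MHC-I, 0.39 ± 0.111. *B2m* (0.08 ± 0.0972), *H2-K1* (0.05 ± 0.131) and *Tapbp* (-0.04 ± 0.124), the light chain, a heavy chain and tapasin, had differences smaller than their errors. *Nlrc5*, the transactivator of MHC-I genes, responded by 8.24 ± 0.305 in WT and 7.29 ± 0.274 in TNFR2-/- cultures. Its St libraries were close (-0.10, TNFR2-/- minus WT) and its NS libraries differed by 0.85.

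Of 6 MHC-II genes tested, 1 had a higher and 1 a lower response at an unadjusted p under 0.05 (all genes, 8.62% and 17.2%). *Ciita*, the master regulator of MHC-II, responded by 1.92 ± 0.130 and 2.71 ± 0.547 (adjusted p = 0.160), and *Rfxap*, a subunit of the RFX factor, had a difference of -0.46 ± 0.154. The 5 immunoproteasome genes had a median difference of -0.06. *Psmb9* (0.16 ± 0.161), *Psmb8* (-0.20 ± 0.143) and *Psme2* (-0.23 ± 0.0895) overlapped between genotypes.

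The constitutive proteasome had a lower response in TNFR2-/- cultures for 14 of 14 subunits tested (all genes, 61.4%), 8 at an unadjusted p under 0.05 (all genes, 17.2%). Its median difference was -0.19. *Psmb5*, its chymotrypsin-like subunit, had 65.9, 65.3 and 64.7 FPKM in WT NS, 67.4, 72.5 and 69.6 in WT St, 70.7, 78.8 and 71.9 in TNFR2-/- NS and 61.5, 62.9 and 59.4 in TNFR2-/- St libraries. The TNFR2-/- libraries thus lay above WT in NS and below WT in St, with a difference of -0.36 ± 0.0578 (adjusted p = 0.0778). *Psmb6* had -0.26 ± 0.0594.

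Most genes of energy metabolism also had a lower response in TNFR2-/- cultures, while their levels in St libraries differed by list. Of 34 genes of respiratory chain complex I, which passes electrons from NADH to ubiquinone, 33 had a lower response in TNFR2-/- cultures (all genes, 61.4%) and 28 did so at an unadjusted p under 0.05 (all genes, 17.2%), with a median of -0.21. In NS libraries 0 of 34 were lower in TNFR2-/- than in WT (median 0.21) and in St libraries 19 (median -0.02). *Ndufa2* had 347, 354 and 321 FPKM in WT NS, 418, 359 and 377 in WT St, 393, 487 and 373 in TNFR2-/- NS and 357, 360 and 290 in TNFR2-/- St libraries, a difference of -0.49 ± 0.0989. St libraries held less of it than NS libraries in the TNFR2-/- cultures and more of it in the WT cultures. *Ndufb8* had -0.24 ± 0.0512.

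The median transcript of the complex I genes was 1026 bases and that of the constitutive proteasome 1220 bases, which places both in the shortest of the 5 groups, whose median difference was -0.17. With trends of length and GC removed, their medians were -0.03 and -0.06. The part of transcript length in these lists was not tested further. In the TCA cycle, which feeds the respiratory chain, 21 of 24 genes had a lower response (all genes, 61.4%), 8 at an unadjusted p under 0.05 (17.2%), with a median of -0.09 that became 0.01 after length and GC. In St libraries 3 of 24 were lower in TNFR2-/- than in WT, with a median of 0.19. *Sdhd* and *Sdhb*, subunits of succinate dehydrogenase, had -0.28 ± 0.0493 and -0.29 ± 0.0553.

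Of 18 genes of glycolysis, 2 were higher and 9 lower at that level (all genes, 8.62% and 17.2%). Their median difference of -0.11 became -0.02 with length and GC trends removed. In St libraries 6 of 18 were lower in TNFR2-/- than in WT (median 0.12). *Pfkfb3*, which makes the activator of phosphofructokinase, responded by 0.26 ± 0.101 in WT and 0.85 ± 0.208 in TNFR2-/- cultures, opposite to *Eno1*, enolase (-0.25 ± 0.0495). Of 23 genes of cholesterol synthesis and uptake, 2 were higher and 7 lower (all genes, 8.62% and 17.2%). *Tm7sf2* and *Mvk*, enzymes of the pathway, had -0.45 ± 0.0588 and -0.36 ± 0.0757.

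Genes of differentiation and of the lineage split. Of 15 myelin and differentiation genes tested, 14 had a lower response in TNFR2-/- cultures (all genes, 61.4%) and 7 did so at an unadjusted p under 0.05 (17.2%), with a median of -0.25 (-0.15 with length and GC trends removed). *Mbp*, myelin basic protein, had 721, 429 and 214 FPKM in WT NS, 782, 452 and 210 in WT St, 411, 578 and 539 in TNFR2-/- NS and 320, 479 and 412 in TNFR2-/- St libraries. Levels ranged widely between cultures, yet NS and St libraries of 1 culture lay close, so its responses were 0.05 ± 0.0752 in WT and -0.34 ± 0.0601 in TNFR2-/- cultures (adjusted p = 0.0770). *Mag*, myelin-associated glycoprotein, had a difference of -0.42 ± 0.120.

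The 19 OPC lineage and surface genes tested had a median difference of -0.02, with 3 higher and 3 lower at an unadjusted p under 0.05 (all genes, 8.62% and 17.2%). *Pdgfra*, the receptor used to isolate the cells, had 136, 157 and 116 FPKM in WT NS, 104, 123 and 93.4 in WT St, 101, 114 and 96.3 in TNFR2-/- NS and 74.0, 80.7 and 57.0 in TNFR2-/- St libraries (-0.22 ± 0.0858, adjusted p = 0.173). *Lingo1*, an inhibitor of differentiation, had overlapping responses of -0.67 ± 0.114 and -0.65 ± 0.0282. *Ptprz1*, a receptor phosphatase, had a difference of 0.32 ± 0.0660.

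Of 18 Notch, Hes and Id genes, which hold progenitors undifferentiated, 2 were higher and 4 lower at that level (all genes, 8.62% and 17.2%). *Hes1*, the Notch effector, responded by -1.95 ± 0.114 in WT and -2.43 ± 0.308 in TNFR2-/- cultures and *Id2*, an inhibitor of basic helix-loop-helix factors, by -0.58 ± 0.123 and -0.10 ± 0.286. *Dll1*, a Notch ligand, had -0.29 ± 0.0609.

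Of 25 genes of DNA replication and S phase, 22 had a lower response in TNFR2-/- cultures (all genes, 61.4%), 9 at an unadjusted p under 0.05 (17.2%) and 14 without overlap between genotypes (21.9%), with a median of -0.13 (-0.05 with length and GC trends removed). Of 30 genes of mitosis and G2/M, 0 were higher and 6 lower at an unadjusted p under 0.05 (all genes, 8.62% and 17.2%). Their median was -0.06, next to -0.05 for all genes. *Mcm5*, a subunit of the replicative helicase, had -0.21 ± 0.0516, *Rfc3*, of the clamp loader, -0.38 ± 0.105, *Birc5*, survivin, -0.31 ± 0.0862 and *Ccnb2*, cyclin B2, -0.24 ± 0.0703.

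*Ddit4*, an inhibitor of mTORC1, had -0.38 ± 0.0522 and *Slc7a11*, the cystine transporter, 0.68 ± 0.156. Their list of 20 stress response genes had 1 higher and 8 lower at an unadjusted p under 0.05 (all genes, 8.62% and 17.2%). The median difference of that list, -0.13, became 0.01 with length and GC trends removed. The glutathione peroxidases *Gpx1* and *Gpx4* had -0.40 ± 0.0620 and -0.44 ± 0.0719, in a list of 16 antioxidant genes with 1 higher and 6 lower (all genes, 8.62% and 17.2%). The longest transcripts of *Gpx1* and *Gpx4*, 1072 and 995 bases, place them in the shortest group by transcript length. The median difference of the antioxidant list, -0.09, became 0.03 with length and GC trends removed. Of 22 matrix and adhesion genes, 4 were higher and 4 lower (all genes, 8.62% and 17.2%). *Icam1*, an adhesion molecule for leukocytes, responded by 7.03 ± 0.376 in WT and 5.97 ± 0.463 in TNFR2-/- cultures, with NS levels of 18.4 to 57.2 FPKM in TNFR2-/- and 6.33 to 16.7 in WT, and *Timp3*, an inhibitor of metalloproteinases, by 1.35 ± 0.133 and 1.95 ± 0.237.

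Markers of other cell types were summed in RPM, reads scaled to the library total. In bulk RNA, fewer cells of a type and less RNA per cell cannot be told apart. The 17 microglia and macrophage markers summed to 15.5 to 22.05 in every library, 14 of them averaged under 10 reads, and 3 were tested, 2 with a higher and 1 with a lower response. Their differences ran from -0.05 to 0.88, and the highest, *Cd68* (0.88 ± 0.164), was called by voom. The 12 astrocyte markers summed to 2404 to 3004 in WT and to 3630 to 5516 in TNFR2-/- libraries. Their median difference in response was 0.02, and *Aldoc* and *Slc4a4* had -0.14 (adjusted p = 0.161, limma) and 0.26 (adjusted p = 0.169). The 20 OPC genes summed to 9177 to 12696 in the WT and 9372 to 12708 in the TNFR2-/- libraries.

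The 13 mural and fibroblast markers, which include *Pdgfra* and *Cspg4* of the OPC list, summed to 1431 to 2323 in WT and 647 to 1647 in TNFR2-/- libraries. The 8 tested had a median difference of -0.39, which was -0.14 without WT culture 2. Of these, 0 were higher and 3 lower at an unadjusted p under 0.05 (all genes, 8.62% and 17.2%). *Acta2* and *Tagln*, of smooth muscle, had -0.50 ± 0.141 and -0.56 ± 0.140. The 13 neuron markers summed to 987 to 1247 in NS and 1332 to 1486 in St libraries. Of 12 tested, 11 had a higher response in TNFR2-/- cultures (all genes, 38.6%), 3 of them at an unadjusted p under 0.05 (all genes, 8.62%). *Syt1* had 0.45 ± 0.0933 and *Nefm* 0.39 ± 0.0851. The 8 endothelial markers summed to 28.8 to 64.5, and *Flt1* and *Esam* had 0.29 ± 0.0643 and -0.51 ± 0.178. The part of these cells in the differences was not tested.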

How the data were processed

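RNA of 12 OPC libraries was measured by RNAseq. Reads were trimmed (Trim Galore), then mapped to GRCm38 and counted per gene (STAR) by the authors, who deposited FPKM per gene symbol in separate NS and St tables. Of 45792 entries, 229 that shared a symbol were left out, and 20 of the genes tested had symbols turned into dates and were not named. FPKM gave whole reads for 26636 of 26636 genes above 0 in at least 2 libraries (tolerance 0.01 reads). The bases behind each FPKM, recovered in the same step, followed annotated exon length weakly (Spearman 0.130, 13346 genes tested), so levels were compared only between libraries of 1 gene.

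Per-culture responses in log2(FPKM + 0.5) were fitted with limma 3.58.1 (R 4.3.3), with a mean-dependent prior, two-sided and with Benjamini-Hochberg adjustment over 13554 genes. Same-numbered NS and St libraries of a genotype deviated together and were paired, whereas same numbers of different genotypes correlated at -0.0553 to 0.204 and were not. Depth of 26886878 to 30335265 read pairs limits genes with few reads. The model was tested on simulated data.

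Genes named were the calls whose responses did not overlap, filled to 10 in each direction with other non-overlapping genes, by smallest p among differences of at least 1.5-fold, 22 genes that the study names and, from each of 30 lists, the called members or the 2 of smallest p. The members and lists were chosen with earlier results of these data known, and lists were described without tests. Some genes that the rule chose are not reported here. Gene positions and transcript lengths came from GENCODE M21 and promoters from RefSeq. Alternatives were other pseudocounts, filters, scalings and priors, culture weights, no pairing, voom on recovered reads and each culture left out.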

Additional observations from a re-analysis of the deposited data

Results flagged for a closer look

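*Gbp2b* was flagged because its response to cytokines differed between the genotypes by a test of the difference itself. The difference was 7.63 on the log2 scale (adjusted p = 0.00376, limma over 13554 genes). Each of 3 cultures labelled TNFR2-/- responded more than each of 3 WT cultures, as in 11.0% of all genes. Calls were named only where responses did not overlap, so the lack of overlap is no finding. Over 20 alternatives the difference stayed between 4.43 and 7.97 and the adjusted p between 0.000103 and 0.0808. Its St libraries held 1626 to 2309 RPM (reads scaled to the library total) in TNFR2-/- and 1.23 to 9.29 in WT cultures. Reads summed with those of *Gbp2* responded less in the TNFR2-/- cultures, as given above.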

How the results depend on the processing

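The count of 1 called gene became 0 with 0.1 FPKM added, 3 with no filter on low values and 168 with voom on recovered reads, and 191 at an adjusted p of at most 0.1. With each culture left out it was 0 to 1, genes at an unadjusted p under 0.05 numbered 2546 to 3656, and the count of 191 ranged from 1 to 291. That count was 90 with genes of at least 0.1 FPKM, 3 with no filter, 1 without the mean-dependent prior and 40 with length and GC trends removed, which also left 2279 genes at an unadjusted p under 0.05. Without the replicate block, that is without pairing the libraries of a culture, 1 gene was called, 1153 genes had an unadjusted p under 0.05 and 1 passed an adjusted p of 0.1 with the fold. The removal of length and GC trends and a filter of 10 recovered reads were chosen after seeing the data.

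Among 92 named genes the direction turned for *Psmb9* with 0.1 FPKM added (-0.22) and with voom (-0.36), and with voom for *Cxcl11* (-0.14), *Cxcl9* (-1.22) and *Ifit1* (-0.24). For *Tapbp* it turned with median-of-ratios factors (0.017), quantile normalization (0.021) and length and GC removed (0.078). With each culture left out *Tapbp* ranged from -0.16 to 0.044, *Lingo1* from -0.025 to 0.083, *B2m* from -0.011 to 0.18 and *H2-K1* from -0.091 to 0.15. The cause was not tested. Voom called 25 named genes that limma did not. Leaving out 1 culture moved the medians of 19 of 30 lists and the differences of 16 of 92 named genes by over 1.5 times, and voom moved 8 and 11. Medians of 17 of 30 lists kept their sign under every alternative run. Counts near 0 in NS libraries limit the fold of *Gbp2b*, *Gbp2*, *Tgm2*, *Cxcl9* and *Csf2*.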
